A study of Mus musculus with 6 samples.

Results

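The genes described here are the Wnt ligands, their receptors and the TCF effectors of the pathway, measured in sorted mouse neural progenitor cells with and without over-expressed Sox3. They were chosen by name, as 41 genes in 5 roles: 19 Wnt ligands, 10 Frizzled receptors, 5 receptors or co-receptors of the Lrp, Ryk and Ror families, the 2 axins with beta-catenin, and the 4 TCF/LEF factors. Of these, 40 were measured, among 15302 named genes in all, and Fzd8 was not analysed here. Where a gene had more than 1 probe set, the brightest over the 6 arrays stood for it.

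The Sox3 cells carried GFP in the Sox1 locus and a Sox3 transgene under the Nestin promoter, which is active in neural progenitors, and the control cells carried the Sox1-GFP allele alone. Both were neural progenitor cells made from mouse embryonic stem (ES) cells in monolayer culture for 4 days, with B27 and N2 supplements and 0.5 µM retinoic acid at days 0 and 2, and both were sorted by FACS at day 4, per the labels' protocols. RNA of 3 samples of each genotype, labelled as biological replicates, was hybridised to 1 Affymetrix array each. Whether these came from separate cultures is not stated, so the p-values measure the spread between these samples only. The comparison asks which genes differ when Sox3, a SoxB1 transcription factor of neural progenitors, is over-expressed. The labels do not say whether a genotype was 1 ES cell clone or several, so a difference between clones and one between genotypes cannot be told apart.

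The 6 arrays had median log2 signals of 6.85 to 6.87, while their interquartile ranges ran from 2.89 in Sox3 replicate 1 to 3.17 in control replicate 3. Sox3 itself was at 9.20, 9.23 and 9.22 in Sox3 cells, against 7.59, 7.52 and 7.25 in control cells, a log2 difference of 1.76 ± 0.08 in the direction of the labels (SE, n = 3 per group; limma adjusted p = 0.00019). Of 7 measured neural progenitor markers, Vim, Sox2, Nes and, barely, Sox1 lay above the median of all probe sets, and Fabp7, Pax6 and Hes5 below it. Sox1 was at 6.86 ± 0.12 in Sox3 cells, against 6.96 ± 0.11 in controls (SD, n = 3 per group). Pax6 was at 5.86 ± 0.03 in Sox3 cells, against 6.05 ± 0.04 in controls (SD, n = 3 per group). Fabp7, a radial glia marker, had the largest difference of the list, at 6.78 ± 0.47 in Sox3 cells, against 6.01 ± 0.03 in controls (SD, n = 3 per group). Its groups did not overlap, and the log2 difference of 0.77 ± 0.20 (SE, n = 3 per group) did not pass (limma adjusted p = 0.074), though it passed in 2 of 8 other settings and without Sox3 replicate 3. Hes5 was the dimmest of them, at 5.63 ± 0.07 in Sox3 cells, against 5.59 ± 0.02 in controls (SD, n = 3 per group), and with no detection call in the deposited table its presence cannot be judged. All 6 measured pluripotency markers lay above the median signal, from percentile 65.0 for Klf4 to 92.2 for Pou5f1, 99.1 for Zfp42 and 99.8 for Dppa5a. The summed signal of these 6 was 14.31 to 14.42 on the log2 scale in Sox3 cells and 14.34 to 14.51 in control cells. The summed signal of 6 neuronal markers, 10.19 to 10.31 in Sox3 cells and 10.46 to 10.60 in control cells, did not overlap between the groups. Taken singly, 31.3% of all named genes did not overlap either, 18.3% with Sox3 below. Signals were summed before the log, so the brightest markers, Stmn2 and Tubb3, weigh most, and neither was called (limma adjusted p = 0.057 and 0.051). Dcx, Elavl3 and Map2 were dim and had differences of -0.01, 0.05 and -0.07. By gene, Sox2, the streak and mesoderm marker Foxc2, the neuronal marker Nefm and the endoderm markers Foxa2, Afp and Cubn fell, 3 of 6 in the endoderm list, and the neural crest marker Foxd3 rose (limma, adjusted p under 0.05). Of these calls, that of Foxc2 alone was kept in all 6 fits that left out 1 array, and Cubn kept 4, Nefm 3, Sox2 and Afp 2 each, and Foxa2 and Foxd3 1 each, with adjusted p up to 0.16. The other 3 endoderm markers, Gata6, Gata4 and Sox17, were not called and had differences above 0 (0.35, 0.26 and 0.08). In the streak and mesoderm list 6 of 7 differences were above 0, against 50.0% over all named genes. In the 2 dimmer quartiles of signal, which hold 4 of the 7, the shares of named genes above 0 were 71.2% and 66.5%. Over all named genes 2.67% were called lower. The part of these markers in the Wnt results was not tested.

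Wnt proteins are secreted, lipid-modified ligands that bind Frizzled receptors together with the co-receptors Lrp5 and Lrp6. In the canonical branch this inhibits the destruction complex, which axin scaffolds, and beta-catenin, encoded by Ctnnb1, then accumulates and acts in the nucleus with TCF/LEF factors on genes such as Axin2. Other ligand and receptor pairs, among them Wnt5a with Ror2, act without beta-catenin, on cell polarity and movement. In the neural tube, Wnt1 and Wnt3a are known as dorsal midline signals that act on patterning and progenitor growth.

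Of the 40 members 1 fell and none rose at an adjusted p under 0.05 (limma, Benjamini-Hochberg over all 21876 probe sets, two-sided), which is 2.5% of them. The background was 3.94% of all 15302 named genes, with 1.27% higher and 2.67% lower. The member that fell was the receptor gene Fzd2. At an unadjusted p under 0.05 in the same limma fit there were 7 members, 3 higher and 4 lower, against 23.8% of all named genes (8.69% higher and 15.2% lower). The share of members called was thus near or below that of genes at large. Over all probe sets 255 were called higher and 536 lower, a split that was 382 and 498 after quantile normalisation and 365 and 455 under cyclic loess. The median log2 difference, Sox3 minus control, was 0.03 over the members and 0.00 over all named genes.

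**Figure D1:**
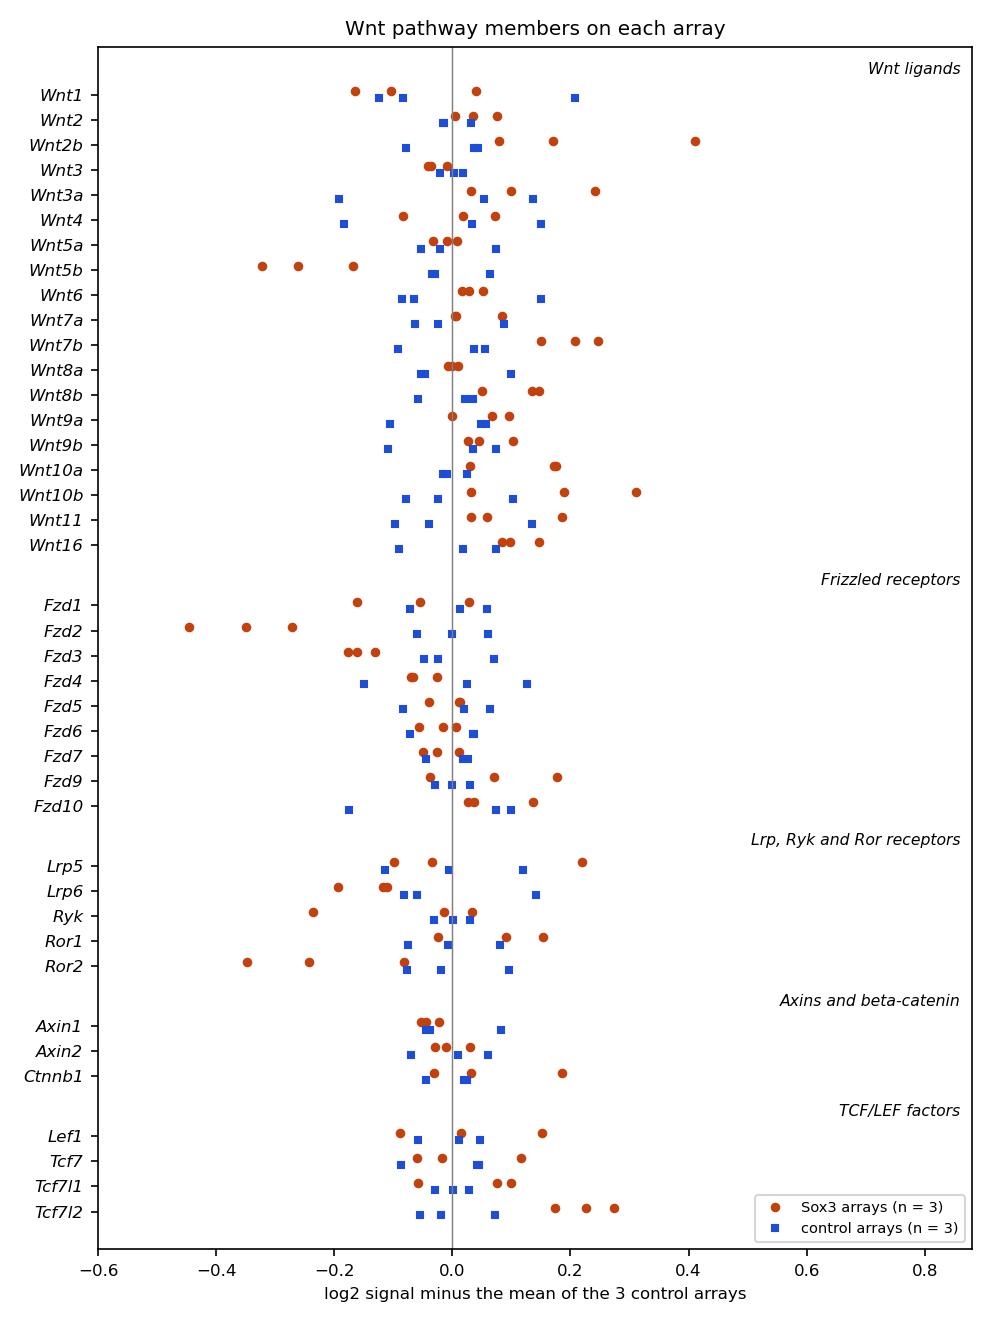
Each row is 1 of the 40 measured members, grouped by role; the x axis is the log2 signal of an array minus the mean of the 3 control arrays of that gene. Circles are the 3 Sox3 arrays and squares the 3 control arrays, and the Sox3 arrays of Fzd2 lie farthest to the left of their controls while most other rows overlap.

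For the 39 members that were not called, the data set a bound on the size of any difference. The 95% interval of the limma fit, taken gene by gene and not adjusted for the number of genes, stayed within 1.5-fold either way for all 39 and within 1.2-fold for 29 of them. The largest fold inside an interval was 1.34, for Wnt2b, and the smallest such bound was 1.09, for Axin2. In 26 of the 39 the difference between groups was smaller than the SD between arrays of the more variable group. The arrays of the 2 groups did not overlap in 11 of 40 members, 6 with Sox3 above and 5 with Sox3 below, against 31.3% of all named genes (13.1% above and 18.3% below). These bounds hold for the deposited values, and RMA, the method behind them, is known to compress the differences of dim genes.

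**Figure D2:**
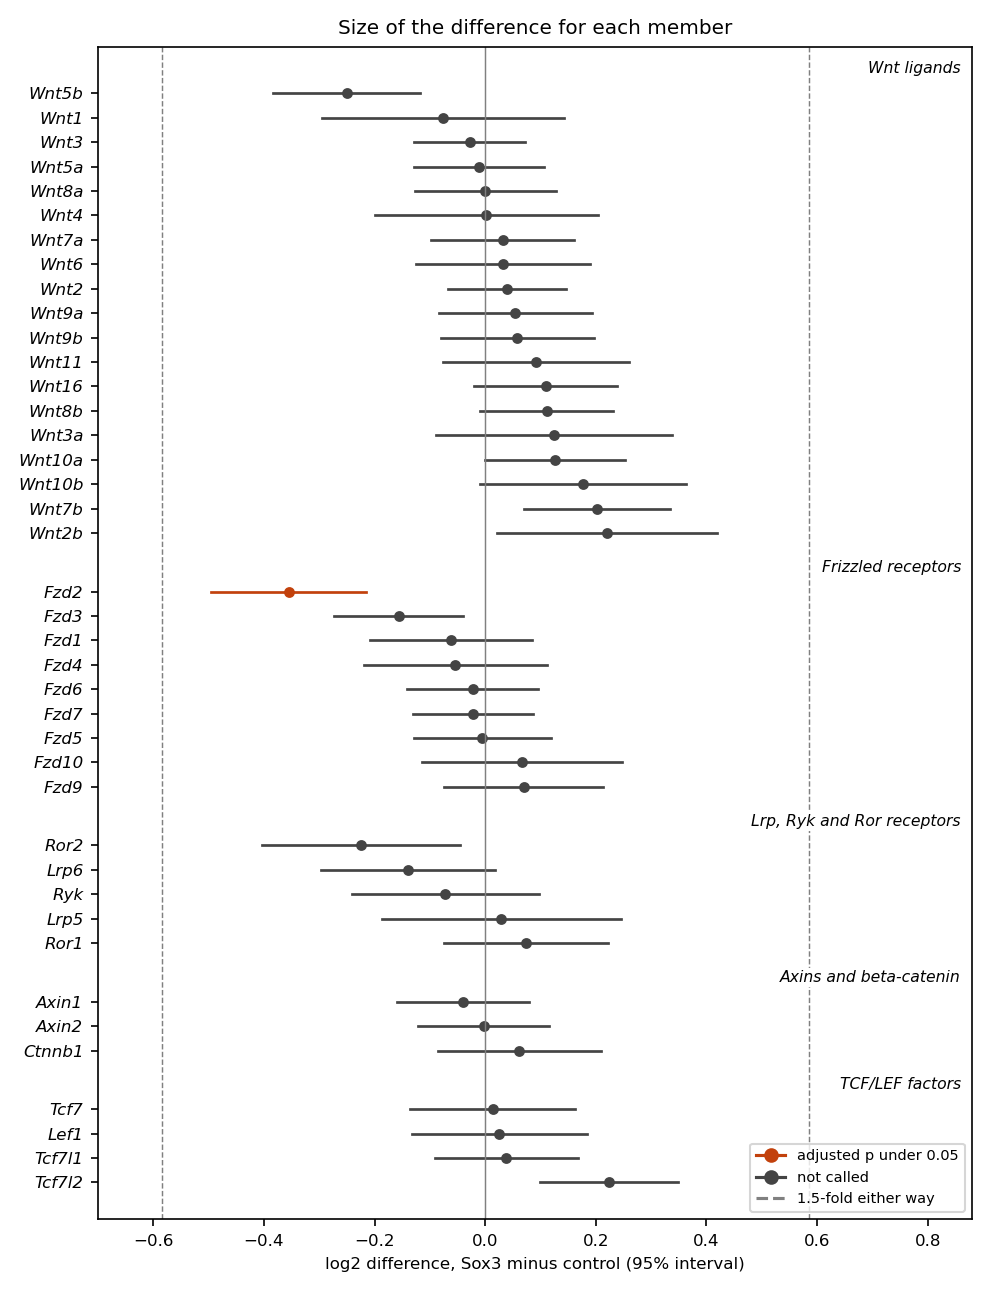
Points are the log2 differences, Sox3 minus control, of the 40 members by role, bars are 95% intervals of the limma fit, and dashed lines mark 1.5-fold either way. Of all members, Fzd2 alone is called, at -0.36, and every interval lies between the dashed lines.

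None of the 19 Wnt ligands passed the test. Signals of the ligands were dim: 17 of the 19 lay below the median of all probe sets and 6 below the 25th percentile, and their group means ran from 4.80 to 7.04 in Sox3 cells and from 4.83 to 7.04 in control cells. Whether a dim ligand was expressed cannot be judged without detection calls. The log2 difference was above 0 for 15 of 19 ligands, with a median of 0.05, but for 11 of 19 with a median of 0.00 after quantile normalisation. Over all named genes 50.0% of differences were above 0. In the 2 dimmer quartiles of signal, which hold 17 of the ligands, the shares of named genes above 0 were 71.2% and 66.5%. Whether the ligands differed in sign from other dim genes was not tested.

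The ligand nearest to a call was Wnt5b, which in vertebrates acts mainly without beta-catenin. Wnt5b had 6.13, 6.19 and 6.28 in Sox3 cells, against 6.41, 6.42 and 6.51 in control cells. Every Sox3 array was below every control array, and the log2 difference was -0.25 ± 0.06 (SE, n = 3 per group; limma adjusted p = 0.055). Wnt5b passed in 3 of 8 other settings and in no fit that left out 1 array (limma adjusted p of 0.074 to 0.18). Its close relative Wnt5a was at 5.37 ± 0.02 in Sox3 cells, against 5.38 ± 0.07 in controls (SD, n = 3 per group), with a difference of -0.01 and a 95% interval of -0.13 to 0.11. Whether the 2 genes differed from each other in their change was not tested.

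Wnt7b and Wnt2b were the ligands with the highest differences. Wnt7b, a ligand of neural progenitors that is known for its part in brain vessel growth, had 6.28, 6.23 and 6.32 in Sox3 cells, against 6.11, 6.13 and 5.98 in control cells. The groups did not overlap, and the difference of 0.20 ± 0.06 (SE, n = 3 per group) did not pass (limma adjusted p = 0.094). Wnt2b had 5.82, 5.57 and 5.48 in Sox3 cells, against 5.33, 5.44 and 5.45 in control cells. Its groups did not overlap either, but Sox3 replicate 1 stood above the other arrays, and the difference of 0.22 ± 0.09 (SE, n = 3 per group) did not pass (limma adjusted p = 0.18). Wnt7a was at 5.76 ± 0.04 in Sox3 cells, against 5.73 ± 0.08 in controls (SD, n = 3 per group).

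Among the dorsal midline ligands, Wnt1 was at 6.10 ± 0.11 in Sox3 cells, against 6.17 ± 0.18 in controls, and Wnt3a at 6.03 ± 0.11 in Sox3 cells, against 5.91 ± 0.17 in controls (SD, n = 3 per group). Both pairs of groups overlapped, and the 95% intervals of the differences ran from -0.30 to 0.14 for Wnt1 and from -0.09 to 0.34 for Wnt3a. Wnt3, the ligand that starts the primitive streak in the mouse embryo, was among the dimmest of all probe sets, at 4.80 ± 0.02 in Sox3 cells, against 4.83 ± 0.02 in controls (SD, n = 3 per group). Wnt8a, a primitive streak ligand, was at 5.43 ± 0.01 in Sox3 cells, against 5.43 ± 0.09 in controls (SD, n = 3 per group). Wnt4, known from kidney and gonad development, was at 7.04 ± 0.08 in Sox3 cells, against 7.04 ± 0.17 in controls (SD, n = 3 per group).

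The other ligands differed by small amounts. Wnt10a and Wnt10b, a pair that signals through beta-catenin, had differences of 0.13 ± 0.05 and 0.18 ± 0.08 (SE, n = 3 per group; limma adjusted p = 0.22 and 0.24). Wnt16 and Wnt8b, a forebrain ligand, had differences of 0.11 ± 0.06 and 0.11 ± 0.05 with non-overlapping arrays in both, and neither passed (limma adjusted p = 0.29 and 0.25). For Wnt11, Wnt9a, Wnt9b, Wnt6 and Wnt2 the differences lay between 0.03 and 0.09, with SEs of 0.05 to 0.07.

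The Frizzleds are the membrane receptors that bind the ligands. Fzd2 had 9.99, 9.89 and 10.06 in Sox3 cells, against 10.28, 10.34 and 10.40 in control cells. Every Sox3 array was below every control array, and Fzd2 was 1.28-fold lower, a log2 difference of -0.36 ± 0.06 (SE, n = 3 per group; limma adjusted p = 0.024). In a sorted population measured in bulk, fewer cells with Fzd2 RNA and less of it per cell cannot be told apart. Leaving out Sox3 replicate 1 ended the Fzd2 call (limma adjusted p = 0.088), as did leaving out Sox3 replicate 2 (0.083) or control replicate 2 (0.074), while its difference stayed between -0.40 and -0.31 over the 6 fits that left out 1 array. Named genes in the brightest quartile of signal, where Fzd2 lies, had a median difference of -0.08, and after quantile normalisation the Fzd2 difference was -0.28 with its call kept (limma adjusted p = 0.041).

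**Figure D3:**
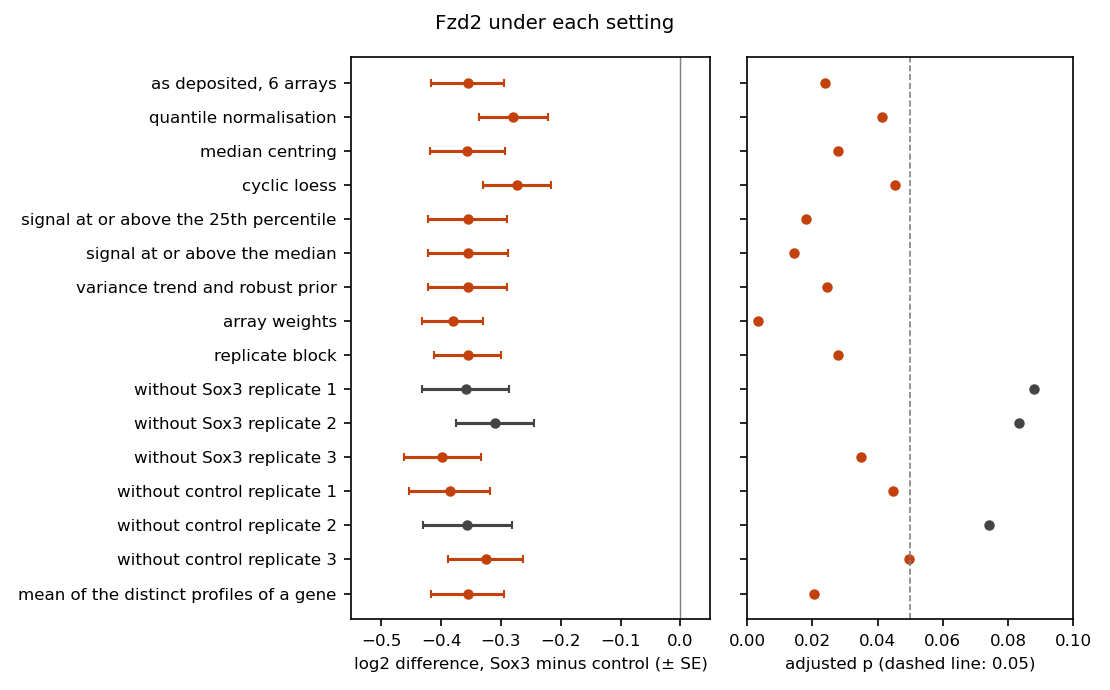
The left panel gives the log2 difference of Fzd2, Sox3 minus control, with its SE, and the right panel its adjusted p, for the deposited values and each other setting; coloured points have an adjusted p under 0.05. The difference is below 0 in every setting shown, and the adjusted p is above 0.05 only where Sox3 replicate 1, Sox3 replicate 2 or control replicate 2 is left out.

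The other 8 measured Frizzleds did not pass. Fzd3, which acts in planar polarity and axon growth, had 7.85, 7.87 and 7.90 in Sox3 cells, against 8.01, 7.98 and 8.10 in control cells. The groups did not overlap, and the difference was -0.16 ± 0.05 (SE, n = 3 per group; limma adjusted p = 0.12). Fzd1 and Fzd7, which with Fzd2 form a group of close relatives, overlapped between the groups. Fzd1 was at 7.44 ± 0.10 in Sox3 cells, against 7.51 ± 0.07 in controls, and Fzd7 at 7.93 ± 0.03 in Sox3 cells, against 7.95 ± 0.04 in controls (SD, n = 3 per group). The interval for Fzd7 ran from -0.13 to 0.09. Fzd5, Fzd6, Fzd4, Fzd9 and Fzd10 had differences between -0.05 and 0.07, with overlapping arrays in all 5. The difference was below 0 for 7 of the 9 measured Frizzleds, but for 4 of 9 after quantile normalisation. Whether Fzd2 differed in its change from these relatives was not tested.

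Of the co-receptors and the alternative receptors none passed. Lrp6, the broadly expressed co-receptor of canonical Wnt signals, had 8.44, 8.36 and 8.43 in Sox3 cells, against 8.69, 8.49 and 8.47 in control cells. Its arrays did not overlap, yet the difference of -0.14 ± 0.07 (SE, n = 3 per group) did not pass (limma adjusted p = 0.27). Lrp5 was at 5.57 ± 0.17 in Sox3 cells, against 5.54 ± 0.12 in controls (SD, n = 3 per group). Ror2, a receptor tyrosine kinase for Wnt5a, had 8.76, 8.87 and 9.03 in Sox3 cells, against 9.09, 9.04 and 9.21 in control cells. The groups did not overlap, but Sox3 replicate 3 and control replicate 2 almost met, and the difference was -0.22 ± 0.08 (SE, n = 3 per group; limma adjusted p = 0.14). Ror1, its relative, was at 5.75 ± 0.09 in Sox3 cells, against 5.67 ± 0.08 in controls (SD, n = 3 per group). Ryk, a kinase-dead Wnt receptor of growing axons, was at 8.40 ± 0.14 in Sox3 cells, against 8.47 ± 0.03 in controls (SD, n = 3 per group).

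Among Ctnnb1, Axin1 and Axin2 none passed, and the log2 differences lay between -0.04 and 0.06. Ctnnb1 had 10.82, 10.88 and 11.03 in Sox3 cells, against 10.80, 10.87 and 10.87 in control cells, with overlapping groups and a difference of 0.06 ± 0.06 (SE, n = 3 per group; limma adjusted p = 0.58). Only RNA is read on the array, whereas the pathway acts on the stability of the protein. Axin2, the feedback gene most used as a readout of beta-catenin with TCF, had 6.67, 6.62 and 6.63 in Sox3 cells, against 6.71, 6.65 and 6.58 in control cells. The Axin2 groups overlapped, and the 95% interval of its difference, -0.12 to 0.12, allows at most a 1.09-fold change either way in these values. Axin1, the scaffold present in most cells, was at 7.94 ± 0.02 in Sox3 cells, against 7.98 ± 0.07 in controls (SD, n = 3 per group). Its values are the same as those of an unnamed predicted transcript, so the pair cannot be told apart.

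The TCF/LEF factors bind the same DNA letters and differ in their balance of activation and repression. Tcf7l2 had 6.71, 6.67 and 6.61 in Sox3 cells, against 6.39, 6.42 and 6.51 in control cells. No array of the Sox3 cells was as low as any control array, and the difference of 0.22 ± 0.05 (SE, n = 3 per group) stood just outside the threshold (limma adjusted p = 0.063). Tcf7l2 passed in 1 of 8 other settings, with array weights, and its limma adjusted p reached 0.15 in the others. With 1 array left out it never passed (limma adjusted p up to 0.20). Tcf7l1, known as a repressor of the pluripotency network in mouse ES cells, was at 10.38 ± 0.08 in Sox3 cells, against 10.34 ± 0.03 in controls (SD, n = 3 per group). Lef1 and Tcf7, factors that are themselves targets of the pathway in many tissues, had differences of 0.03 and 0.01 with intervals of -0.13 to 0.18 and -0.14 to 0.16. Their arrays overlapped, as did those of Tcf7l1. All 4 differences were above 0, against 3 of 4 after quantile normalisation and 2 of 4 with array weights.

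**Figure D4:**
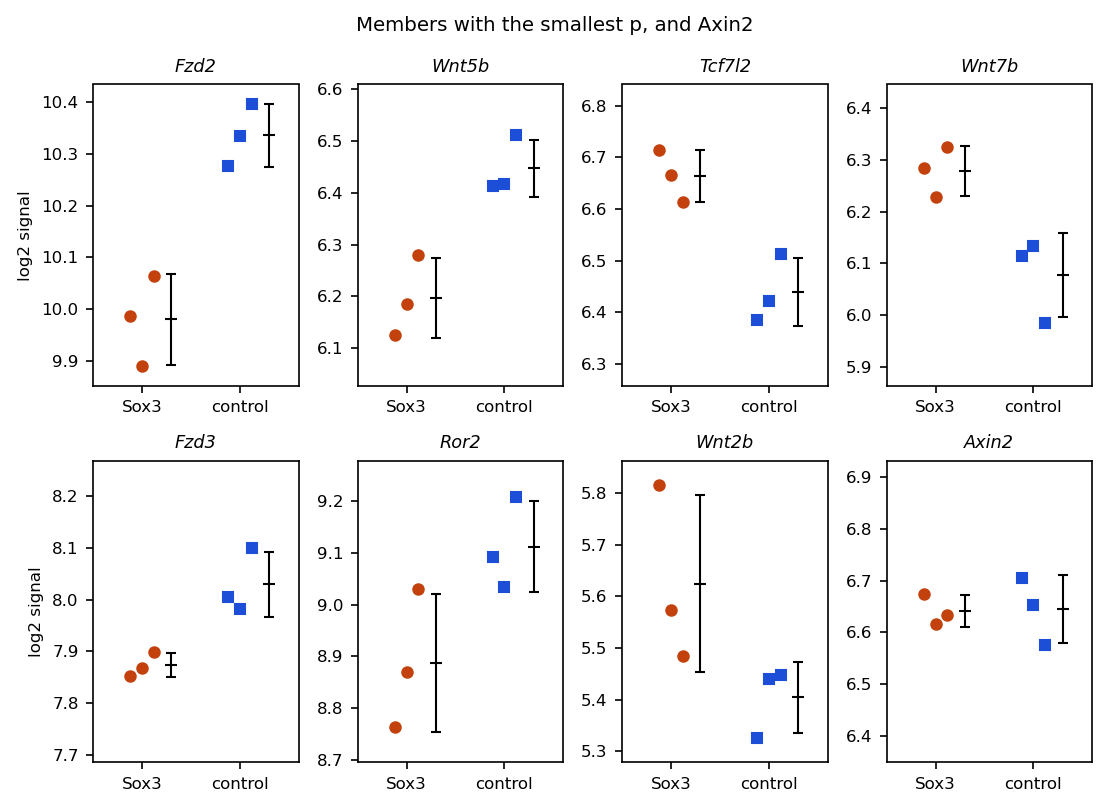
Log2 signals on each array for the 7 members with an unadjusted p under 0.05 and for Axin2, with Sox3 arrays as circles and control arrays as squares; bars to the right are the mean and SD (n = 3), and all panels span the same height. Fzd2 shows the widest gap between groups, and the Axin2 arrays overlap.

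Promoter sequences were looked at for Wnt5b and Tcf7l2, the 2 members just outside the threshold, on opposite sides. RefSeq windows (GRCm38.p6, 250 bases before to 50 after a start) were used for 30 of the 40 members, 39 windows in all. Axin1, Fzd2, Fzd3, Fzd6, Lrp5, Lrp6, Wnt5a, Wnt7b, Wnt8a and Wnt10a were the members with no window used. Any member window on a chromosome that the search of members skipped is missing, while the windows at large include that chromosome. Each window was searched on both strands for TCF/LEF letters, which were CTTTGAT or the variant CTTTGAA, and for Sox letters, which were ACAATG or the variants ACAAAG and, separately, ATTGTT. The first and last of the Sox forms can overlap and were then counted as 1 stretch. Sox letters were in 12 of the 39 member windows (30.8%), against 33.2% of all 32851 windows, and TCF/LEF letters in 2 of 39 (5.13%), against 8.65%. These shares were near those of promoters at large, and a match is a description of the sequence only. Both windows of Tcf7l2 and the 1 of the 3 Wnt5b windows that holds a match are shown, 5′ to 3′ on the gene's strand, with the matched letters in capitals:
Tcf7l2, chr19:55741560-55741859, plus strand: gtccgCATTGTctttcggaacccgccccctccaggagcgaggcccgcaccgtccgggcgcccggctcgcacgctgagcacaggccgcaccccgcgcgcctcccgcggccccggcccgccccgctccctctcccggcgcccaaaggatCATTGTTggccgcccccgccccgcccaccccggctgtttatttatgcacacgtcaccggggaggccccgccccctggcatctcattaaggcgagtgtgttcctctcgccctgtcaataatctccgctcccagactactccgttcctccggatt
Tcf7l2, chr19:55895071-55895370, plus strand: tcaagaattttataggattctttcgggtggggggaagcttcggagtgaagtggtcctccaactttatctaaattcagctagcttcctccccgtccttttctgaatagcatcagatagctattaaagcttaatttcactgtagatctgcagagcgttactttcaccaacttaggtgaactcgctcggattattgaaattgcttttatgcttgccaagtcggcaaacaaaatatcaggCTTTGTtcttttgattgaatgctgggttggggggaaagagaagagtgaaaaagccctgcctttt
Wnt5b, chr6:119449337-119449636, minus strand: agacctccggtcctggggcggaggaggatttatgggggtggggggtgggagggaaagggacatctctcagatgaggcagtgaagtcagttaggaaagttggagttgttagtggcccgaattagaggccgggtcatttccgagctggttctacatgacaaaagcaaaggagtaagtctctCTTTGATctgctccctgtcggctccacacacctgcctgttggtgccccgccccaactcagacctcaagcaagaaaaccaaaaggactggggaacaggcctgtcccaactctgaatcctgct
The first Tcf7l2 window has 2 separate stretches with Sox letters, as 8.05% of all windows have 2 or more, and the second has 1. Among the members, Lef1 and Wnt1 also have a window with 2 such stretches, and neither these genes nor Tcf7l2 were called. The Wnt5b window holds the TCF/LEF letters once.

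Further pathway genes in 7 lists were chosen with earlier results of these data known. Their share of calls is therefore no test of the pathway. Beyond the members, the 110 measured genes of these lists gave 4 that rose and 6 that fell, 9.09% of them against 3.94% of all named genes. The same 3.94% (1.27% higher and 2.67% lower) stands beside the calls counted in each list below. Those that rose were Gpc4, Nrcam, Sfrp2 and Notum, and those that fell included Ccnd1, Gpc3, Lgr4, Dvl1 and Wls. The calls of Gpc4, Nrcam and Ccnd1 were kept in all 6 fits that left out 1 array.

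On the cell surface, glypicans carry Wnt proteins and Lgr4 is a receptor for R-spondins, which raise Frizzled levels. Of 14 measured genes in this list, 1 rose, 2 fell and 11 did not pass, and the median difference was -0.13. An unadjusted p under 0.05 in the limma fit was found for 9 of the 14, against 23.8% of all named genes. Gpc4 had 10.59, 10.70 and 10.52 in Sox3 cells, against 9.69, 9.83 and 9.88 in control cells, and was 1.74-fold higher (log2 difference 0.80 ± 0.07 SE, n = 3 per group; limma adjusted p = 0.0026). Gpc3, its neighbour on the X chromosome, had 10.66, 10.74 and 10.89 in Sox3 cells, against 11.15, 11.25 and 11.35 in control cells, and was 1.40-fold lower (-0.49 ± 0.08 SE, n = 3 per group; limma adjusted p = 0.016). These neighbouring glypican genes moved in opposite directions, with no overlap of arrays in either. Lgr4 had 10.14, 10.19 and 10.16 in Sox3 cells, against 10.40, 10.49 and 10.67 in control cells, a difference of -0.36 ± 0.07 (SE, n = 3 per group; limma adjusted p = 0.036). Leaving out any 1 of Sox3 replicate 1, Sox3 replicate 2 and control replicate 2 ended the calls of Gpc3 and Lgr4 (limma adjusted p up to 0.072 and 0.13), and for Lgr4 so did leaving out Sox3 replicate 3.

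Ligand secretion and the first step inside the cell held 1 call each. Wls, the carrier that takes lipid-modified Wnt proteins to the cell surface, had 7.66, 7.70 and 7.79 in Sox3 cells, against 7.94, 8.02 and 8.15 in control cells, a difference of -0.32 ± 0.07 (SE, n = 3 per group; limma adjusted p = 0.043). None of the other 7 genes of the secretion list passed. Among them Porcn, the enzyme that adds the lipid, had a difference of 0.31 ± 0.09 (SE, n = 3 per group; limma adjusted p = 0.11), above 0 where that of Wls was below. Dvl1, a dishevelled protein that relays the signal from Frizzled, had 8.93, 9.01 and 9.00 in Sox3 cells, against 9.31, 9.26 and 9.40 in control cells, a difference of -0.35 ± 0.05 (SE, n = 3 per group; limma adjusted p = 0.018). Dvl3, a relative of Dvl1, had a difference of 0.35 ± 0.11 that did not pass (SE, n = 3 per group; limma adjusted p = 0.13), and the other 18 genes of the dishevelled and destruction complex list did not pass either. Of the 6 fits that left out 1 array, 5 ended the Wls call (limma adjusted p up to 0.15), all but the one lacking control replicate 1, and so did median centring (0.055). Leaving out any Sox3 replicate ended the Dvl1 call (up to 0.079).

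Target genes differed in both directions. Of 30 measured canonical targets, a list that includes Axin2, Lef1, Tcf7 and Fzd7, 2 rose, 2 fell and 26 did not pass, with a median difference of 0.01. Ccnd1, which encodes cyclin D1, was at 8.38 ± 0.09 in Sox3 cells, against 8.94 ± 0.06 in controls (SD, n = 3 per group), 1.48-fold lower (limma adjusted p = 0.0050). Nrcam, a neuronal cell adhesion gene, had 7.23, 7.39 and 6.99 in Sox3 cells, against 6.55, 6.46 and 6.43 in control cells, and was 1.65-fold higher (limma adjusted p = 0.0092). Notum, the enzyme that removes the lipid from Wnt proteins and so also a secreted antagonist, had 8.62, 8.63 and 8.59 in Sox3 cells, against 8.22, 8.10 and 7.82 in control cells. Among 15 secreted antagonists, Notum and Sfrp2 rose and 13 did not pass. Leaving out Sox3 replicate 1 or Sox3 replicate 2 ended both calls (limma adjusted p up to 0.060 for Sfrp2 and 0.086 for Notum), and for Notum so did leaving out Sox3 replicate 3 or control replicate 2.

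**Figure D5:**
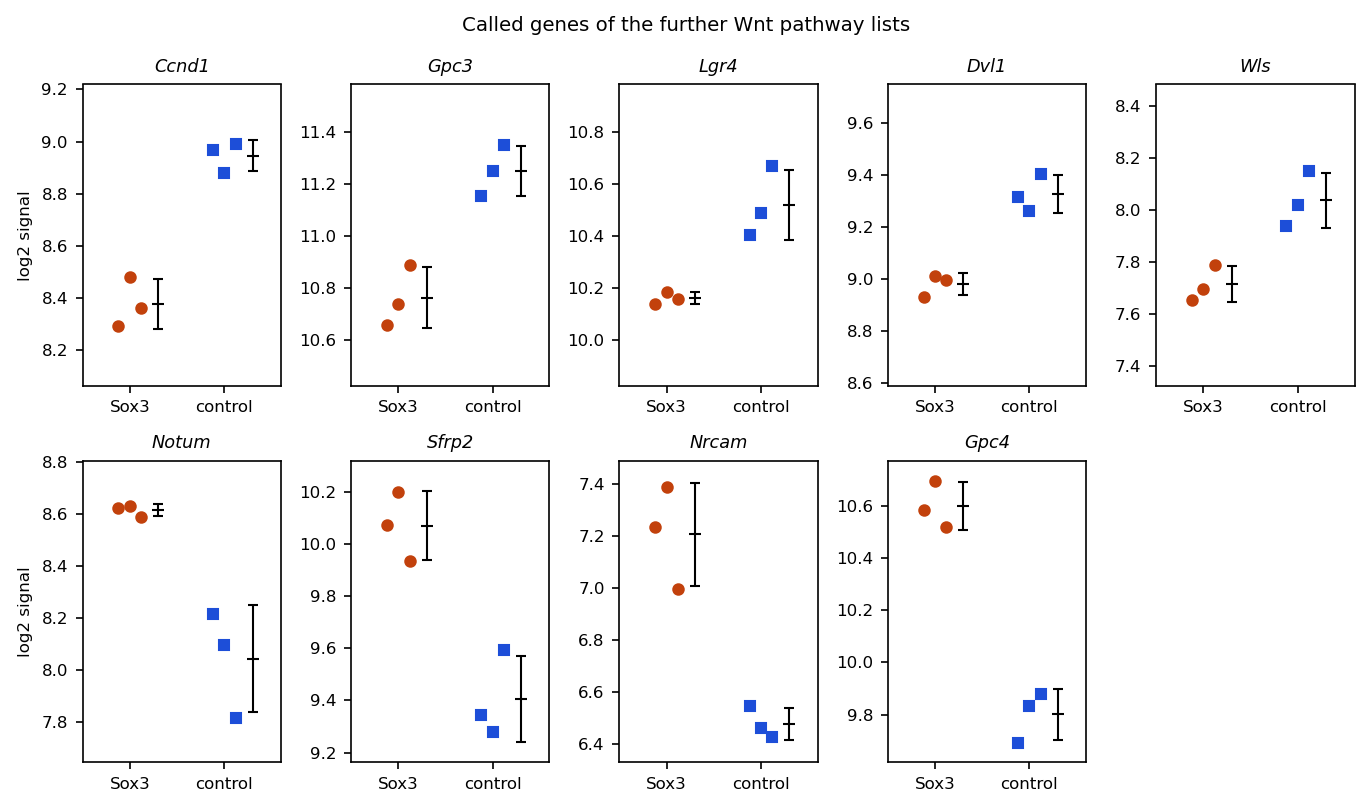
Log2 signals on each array for 9 called genes of the further pathway lists, ordered from the lowest to the highest difference, with Sox3 arrays as circles, control arrays as squares, and the mean and SD (n = 3) to the right; all panels span the same height. In every panel the 3 Sox3 arrays lie apart from the 3 control arrays.

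In the nuclear cofactor list and the planar polarity list no gene passed. Of 20 coactivators and corepressors of the TCF complex, 7 had an unadjusted p under 0.05 in the limma fit, where 23.8% of all named genes did. The largest differences were those of Tle1, a corepressor, at -0.41 ± 0.13, and Pygo1, a coactivator that binds beta-catenin through Bcl9 proteins, at -0.32 ± 0.07 (SE, n = 3 per group; limma adjusted p = 0.11 and 0.058). Of 12 measured planar polarity genes, 2 had an unadjusted p under 0.05, against the same 23.8% of all named genes. The largest differences in that list were those of Celsr1, a polarity cadherin, at -0.19 ± 0.08, and Dact2, a dishevelled-binding protein gene, at 0.17 ± 0.09 (SE, n = 3 per group; limma adjusted p = 0.20 and 0.30).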

How the data were processed

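The deposited values are on a log2 scale, with a value for each probe set on each array. The submitters' processing notes name RMA and Affymetrix Power Tools for this step. RMA subtracts background, brings the arrays to a shared intensity distribution by quantile normalisation, and combines a set's probes into a single value. The deposited values did not share a distribution between arrays, with interquartile ranges of 2.89 to 3.17. With array weights, control replicate 3 had the lowest weight, 0.29, and control replicate 2 the highest, 3.05. The sources used here give neither versions nor the array type, and no detection calls came with the values. The 3 arrays per group set the precision. After 64 array controls were left out, 21876 probe sets were tested, of which 17123 matched 1 symbol by unversioned RefSeq accession (GRCm38.p6 gene table, used for names and neighbours only). Of the 40 members, 37 have 1 probe set and 3 have 2 with identical values.

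The comparison was fitted in R 4.3.3 by limma 3.58.1 (lmFit, then eBayes; two-sided, with neither a replicate block nor a filter), with Benjamini-Hochberg adjustment over all 21876 probe sets and a threshold of 0.05. Differences are Sox3 minus control with the moderated standard error (SE). The procedure was tested on simulated data. The members, the further pathway lists and the marker lists were chosen with earlier results of these data known. Named are all members, Sox3 and, per further list, up to 4 called genes by smallest p or else the 2 with the largest difference. Of the markers, all measured progenitor, neuronal and endoderm genes are named. From the streak and neural crest lists only called genes are named, and from the pluripotency list the dimmest and the brightest, picked after their values were seen. Porcn and Dvl3 were also added after their values were seen. Of the called genes of the further lists, 1 is not reported here. Replicate numbers were not taken as pairs: deviations of same-numbered arrays correlated at 0.29, -0.21 and 0.09. Alternatives were other normalisations, signal filters, variance models, array weights, a replicate block, averaged profiles, other thresholds and leaving out each array.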

Additional observations from a re-analysis of the deposited data

How the results depend on the processing

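Fzd2 kept its direction in all 15 other settings and its call in 12. Fallen members numbered 1 with the deposited values, 2 with a filter at the 25th percentile, with array weights, with averaged profiles (fewer features tested) or at an adjusted p under 0.1, and 0 at an adjusted p under 0.01; they numbered 0 to 1 with 1 array left out. The second was Wnt5b (limma adjusted p = 0.0498, 0.015 and 0.0493 in the first 3). Risen members numbered 0 with the deposited values, 1 with array weights (Tcf7l2), 2 at an adjusted p under 0.1, and 0 in each fit with 1 array left out. Further pathway genes that rose numbered 2 to 4 and those that fell 2 to 6 with 1 array left out, and 11 fell with array weights, where 817 probe sets rose and 1280 fell in the whole table, against 255 and 536. The labels do not say that equal replicate numbers share a culture; with a replicate block 0 members rose and 1 fell, as without it, 4 further genes rose and 9 fell, against 4 and 6 without it, and the Fzd2 difference was -0.36 (limma adjusted p = 0.028). Signs turned in 19 uncalled members, whose deposited differences were at most 0.09 in size. After quantile normalisation the values were -0.0014 for Wnt2, -0.0118 for Wnt6, -0.015 for Wnt7a, -0.0402 for Wnt8a, 0.0613 for Fzd5, 0.0097 for Fzd6, 0.0177 for Fzd7, -0.0147 for Lrp5, 0.0046 for Axin1 and -0.0216 for Lef1. Under cyclic loess they were -0.0085 for Wnt4, -0.0114 for Wnt6, -0.0111 for Wnt7a, -0.0385 for Wnt8a, 0.0476 for Fzd5, 0.0137 for Fzd6, 0.0181 for Fzd7, -0.0115 for Lrp5, 0.0007 for Axin1 and -0.0186 for Lef1. With array weights they were -0.0337 for Wnt4, 0.0004 for Wnt5a, -0.0147 for Wnt11, -0.0101 for Fzd10, -0.0975 for Lrp5, -0.031 for Lef1 and -0.0339 for Tcf7, and under median centring -0.0001 for Wnt8a. With 1 array left out the ranges were -0.1382 to 0.0276 for Wnt1, -0.0898 to 0.0777 for Wnt4, -0.0387 to 0.0251 for Wnt5a, -0.0107 to 0.1076 for Wnt6, -0.0261 to 0.0496 for Wnt8a, -0.1292 to 0.009 for Fzd4, -0.0469 to 0.0263 for Fzd5, -0.0209 to 0.1164 for Fzd10, -0.0667 to 0.0932 for Lrp5, -0.1244 to 0.0097 for Ryk, -0.0622 to 0.0009 for Axin1, -0.038 to 0.0272 for Axin2, -0.0375 to 0.0829 for Lef1 and -0.0386 to 0.0498 for Tcf7. The causes were not tested. Precision is limited by 3 arrays a group and by dim signals without detection calls.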
